A study of Mus musculus with 36 samples.

Results

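The angiotensin and endothelin systems of the infarcted mouse left ventricle are described here through 9 genes of their peptides, converting enzymes and receptors. The genes were chosen by name: Agt, Ace, Agtr1a and Agtr2 for angiotensin, and Edn1, Edn3, Ece1, Ednra and Ednrb for endothelin. Of these, 8 were listed in the mRNA table, which holds 16415 genes. Agtr2, the type 2 angiotensin receptor gene, was not among the listed genes and was not analysed here.

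The mice were C57BL/6 males, 8 weeks old at surgery, and no transgene or drug is named for any group. In the myocardial infarction (MI) groups the proximal left anterior descending coronary artery was tied, and the sham groups had the same operation without the tie. Left ventricles were taken at 3 stages after surgery (1 day, then 1 week, then 8 weeks), and each of the 6 groups had 3 libraries for mRNA sequencing, 18 in all. The RNA was from pooled ventricles, the number of animals in a library was not given, and nothing says that libraries came from separate animals, so p-values refer to the spread among these libraries alone, which may be technical.

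Angiotensinogen, encoded by Agt, is cut by renin and then by angiotensin-converting enzyme (Ace) to angiotensin II, which raises blood pressure and drives growth of cardiac muscle and scar through its type 1 receptor (Agtr1a in the mouse). Endothelin 1 (Edn1) is released from its precursor by endothelin-converting enzyme (Ece1) and is among the strongest known constrictors of vessels. Its type A receptor (Ednra), on smooth muscle and cardiac muscle, mediates constriction and growth, and its type B receptor (Ednrb), prominent on endothelium, relaxes vessels through nitric oxide and clears the peptide. Endothelin 3 (Edn3) binds preferentially to the type B receptor and is best known from the development of neural crest cells.

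The genes were placed on build GRCm38.p6, the same assembly as the mm10 build of the files. Agt lies at chr8:124556587-124569706 on the minus strand, Ace at chr11:105967948-105989964 on the plus strand and Agtr1a at chr13:30336356-30382867 on the plus strand. Edn1 lies at chr13:42301476-42307990 and Edn3 at chr2:174760619-174784042, both on the plus strand, and Ece1 at chr4:137862237-137965229, also on the plus strand. The receptor genes Ednra, at chr8:77663029-77724452, and Ednrb, at chr14:103814615-103844508, are both on the minus strand. Ace, Ednra, Ednrb and Ece1 overlap annotated genes of the opposite strand, 1 for Ace (Gm11651), 3 for Ednra, 1 for Ednrb (Gm35197) and 2 for Ece1. Whether reads were counted by strand is not given in the sources used here, so reads of these partners could not be told apart from those of the 4 genes.

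RefSeq promoter windows on GRCm38.p6, each of 250 bases before and 50 after an annotated start, were found for 8 of the 9 genes, in 12 windows, and there was none for Agtr1a. The 120 bases before the start are shown for both endothelin receptors, which moved in opposite directions at 1 day, and for Agt and the first start of Ace, the only windows of the 12 that hold the letters TATAAA. The Ednra stretch is chr8:77724453-77724572 and the Ednrb stretch chr14:103843702-103843821, both on the minus strand. The Ednrb stretch lies inside the span of that gene given above, so its annotated start is not the outermost of the gene. The Agt stretch is chr8:124569707-124569826 on the minus strand and the Ace stretch chr11:105967828-105967947 on the plus strand. Capitals mark TATAAA on either strand, in the reverse complement for Ace.
Ednra: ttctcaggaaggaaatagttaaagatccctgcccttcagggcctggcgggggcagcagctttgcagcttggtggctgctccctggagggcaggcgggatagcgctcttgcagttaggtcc
Ednrb: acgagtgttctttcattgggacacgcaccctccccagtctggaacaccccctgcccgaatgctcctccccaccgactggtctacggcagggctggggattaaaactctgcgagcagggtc
Agt: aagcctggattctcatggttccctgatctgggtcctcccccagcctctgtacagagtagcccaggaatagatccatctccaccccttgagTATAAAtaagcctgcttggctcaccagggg
Ace: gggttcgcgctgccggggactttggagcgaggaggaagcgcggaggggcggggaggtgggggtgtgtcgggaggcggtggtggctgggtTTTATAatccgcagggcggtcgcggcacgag

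The TATAAA letters began 30 bases before the start of Agt and 31 bases before that of Ace, and 13.6% of the 32851 promoter windows of this length in the table hold them on either strand. The AP-1 letters TGANTCA were in none of the 12 windows and in 7.81% of all windows, and the GATA letters AGATAA were in the Edn1 window alone, against 11.2% of all. The hypoxia element core ACGTG was in the Edn1 window and in 1 of the 4 Ece1 windows, against 19.6% of all. These matches describe the letters of the windows only.

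Levels are given as FPKM, in which the fragments of a gene are scaled by the length of its transcript and by the mapped fragments of the library. Tests were on log2(FPKM + 1) with limma over the 12858 genes that had at least 1 FPKM in at least 3 libraries, with Benjamini-Hochberg adjustment, and a gene was called at an adjusted p below 0.05. Log2 changes are on that scale, which understates the change of genes at low FPKM such as Agt and Edn3. All 8 listed genes passed the filter, Edn3 through its 8-week libraries alone. In tissue of mixed cells, fewer cells of a type and less RNA per cell could not be told apart.

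A large part of the transcriptome differed between MI and sham. At 1 day 70.4% of tested genes were called, at 1 week 89.4% and at 8 weeks 81.0%, and the median log2 change of all tested genes was 0.09, 0.79 and 0.52 at the 3 stages. At 1 week and 8 weeks a positive log2 change below that median is therefore a smaller rise than that of the middle gene, and the values after scaling by median-ratio factors, which bring the middle gene near 0, are given beside the results of the 8 genes. The sum over 12 ventricular cardiomyocyte markers, none of them at 0 in all libraries of a group, was 37738 to 46616 FPKM over the 9 sham libraries, 14129 to 17481 in the 1-day MI libraries, 2839 to 9019 in those of 1 week and 16016 to 38372 in those of 8 weeks.

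In the FPKM as deposited, Edn1 and Ece1 were higher in MI than in sham at every stage. Ace was higher from 1 week on and Agtr1a was called lower up to 1 week. After median-ratio scaling Ece1 was no longer called at 8 weeks, and Agtr1a was called lower at 8 weeks too. Ednra fell and Ednrb rose at 1 day, and both rose at 1 week in the FPKM as deposited. Of the 8 genes, 4 rose and 2 fell at 1 day, 5 rose and 2 fell at 1 week, and 5 rose and 0 fell at 8 weeks. After median-ratio scaling 4 rose and 3 fell at 1 week, where 5356 of the 12858 tested genes rose and 5087 fell. At 8 weeks 2 rose and 2 fell after that scaling, where 4452 of all tested genes rose and 4899 fell. Over all tested genes in the FPKM as deposited, upward calls made up 39.7%, then 72.8%, then 70.4%. Downward calls made up 30.6%, then 16.5%, then 10.6%. The counts of the 8 genes are near these shares and are not a result about them. By plain separation of the libraries, the 3 MI and 3 sham values did not overlap for 8 of the 8 genes at 1 day, again for 8 at 1 week and for 4 at 8 weeks, against 81.3%, 92.2% and 77.2% of all tested genes.

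**Figure D1:**
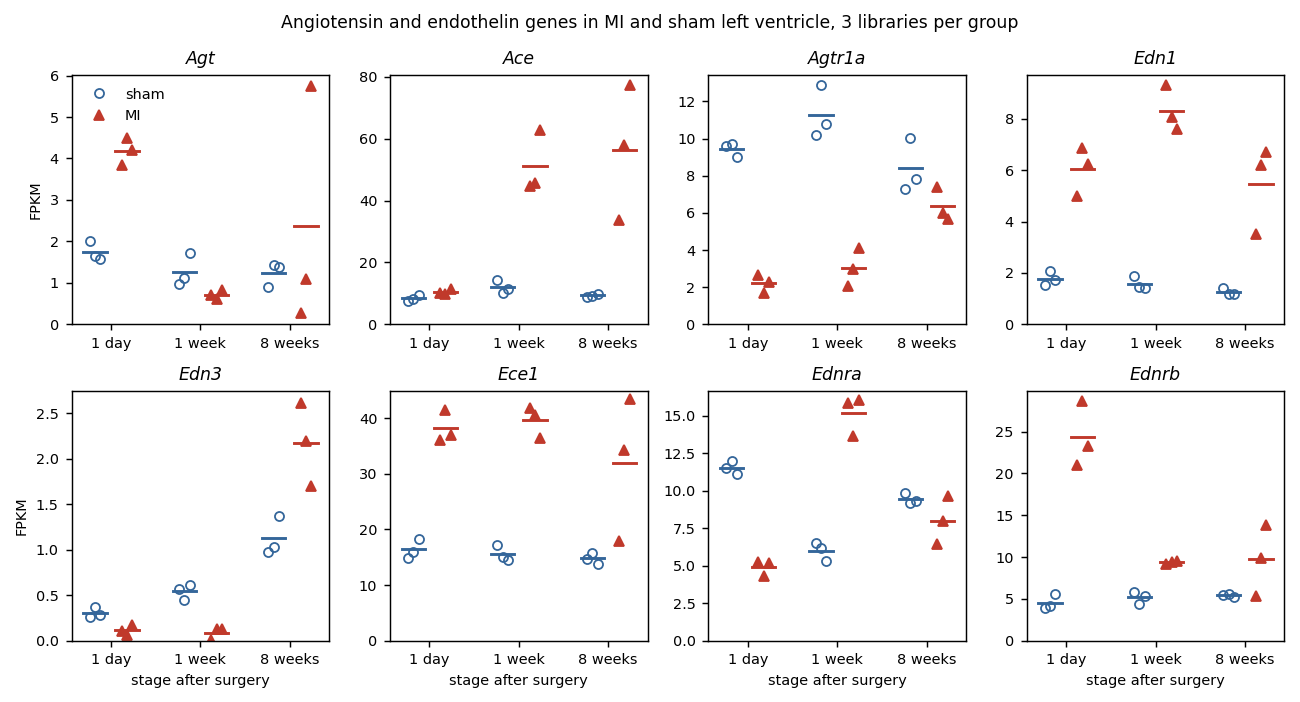
FPKM of the 8 listed genes (vertical axes, linear, each from 0) in every library of the sham groups (open circles) and MI groups (filled triangles) by stage after surgery, with bars at the group means. MI and sham libraries separate for every gene at 1 day and 1 week, and at 8 weeks the MI libraries of Agt run from 0.277 to 5.75 FPKM.

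Agt, the precursor gene, was low throughout. At 1 day the MI libraries had 3.84, 4.50 and 4.21 FPKM and the sham libraries 2.01, 1.66 and 1.57. All 3 MI libraries were above all sham libraries, and Agt rose by a log2 change of 0.92 ± 0.38 (SE) with a limma adjusted p of 0.0413. This call was lost in 10 of 14 alternative settings, among them each of the 6 that left out 1 library of the stage, which gave 0.87 to 0.99 with adjusted p of 0.0608 to 0.0957, and over all 14 settings the adjusted p ran from 1.64e-05 to 0.0957.

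At 1 week Agt stood at 0.712, 0.605 and 0.837 FPKM in MI and at 0.984, 1.12 and 1.71 in sham, so the MI libraries were now the lower ones. The log2 change of −0.39 was not called (limma adjusted p = 0.335), although after median-ratio scaling it was −0.81 (limma adjusted p = 0.0286), and over its alternatives the adjusted p ran from 0.0114 to 0.58. At 8 weeks the MI libraries had 0.277, 1.09 and 5.75 FPKM around the sham values of 0.910, 1.43 and 1.38, with a log2 change of 0.23 (limma adjusted p = 0.574). The sign depended on the scaling and on the libraries. The log2 change was −0.22 after median-ratio scaling, −0.45 after quantile normalization and −0.41 in the authors' normalized values, with no call. Without MI library 3 it was −0.45 (limma adjusted p = 0.0317), and without MI library 1 it was 0.75 (limma adjusted p = 0.0325), while over all alternatives the adjusted p ran from 0.0008 to 0.924.

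Ace, the enzyme that forms angiotensin II and degrades bradykinin, was close to sham at 1 day and had the largest rise of the 8 genes at 8 weeks. At 1 day the MI libraries had 10.1, 9.93 and 11.5 FPKM and the sham libraries 7.41, 8.21 and 9.63, which do not overlap but gave no call (log2 change 0.29, limma adjusted p = 0.246). At 1 week Ace reached 44.8, 45.7 and 62.8 FPKM in MI against 14.3, 10.02 and 11.4 in sham. It rose by 2.01 ± 0.22 (SE) on the log2 scale, with a limma adjusted p of 3.28e-07 and a ratio of mean FPKM of 4.29.

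At 8 weeks the MI libraries held 33.6, 58.0 and 77.2 FPKM of Ace and the sham libraries 8.71, 9.32 and 9.93. The log2 change was 2.40 ± 0.22 (SE, limma adjusted p = 1.87e-07), and the mean FPKM was 6.04 times that of sham. After median-ratio scaling Ace still rose, by 1.08 at 1 week and 1.70 at 8 weeks. The effect of MI was larger at 1 week than at 1 day by 1.72 (limma adjusted p = 0.00016) and larger at 8 weeks than at 1 day by 2.10 (limma adjusted p = 3.17e-05), in a family where 71.8% and 63.7% of all tested genes were called.

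Agtr1a, the receptor for angiotensin II on vessel and other cardiac cells, moved the other way. At 1 day it had 2.66, 1.70 and 2.29 FPKM in MI and 9.60, 9.74 and 8.99 in sham, and at 1 week 2.05, 2.96 and 4.11 against 10.2, 12.9 and 10.8. Every MI library was below every sham library at both stages. Agtr1a fell by 1.71 on the log2 scale at 1 day (SE 0.17, limma adjusted p = 2.09e-07) and by 1.63 at 1 week (SE 0.17, limma adjusted p = 1.76e-07), and its mean FPKM was 0.235 and 0.269 of that in sham.

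By 8 weeks Agtr1a was at 7.40, 6.02 and 5.67 FPKM in MI and at 7.29, 10.1 and 7.83 in sham, where the ranges overlap. The log2 change of −0.35 had a 95% interval of −0.71 to 0.01 and was not called (limma adjusted p = 0.0686), but it was −0.99 after median-ratio scaling (limma adjusted p = 0.000409). Without MI library 1 it was −0.45 (limma adjusted p = 0.0297), and over all alternatives it ran from −0.996 to −0.15, with adjusted p of 0.000409 to 0.593. Set against the earlier stages, the 8-week effect was 1.28 above the 1-week one (limma adjusted p = 0.000731) and 1.36 above the 1-day one (limma adjusted p = 0.00015). The background of calls between 8 weeks and 1 week was 47.1% of tested genes. The sham levels of Agtr1a passed no test between stages, but each sham library of 1 week was above every sham library of 1 day and 8 weeks. In sham Agtr1a was 0.39 lower at 8 weeks than at 1 week (95% interval −0.75 to −0.03, limma adjusted p = 0.44). Part of the difference of 1.28 thus came with a lower sham level at 8 weeks.

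Ace and Agtr1a thus stood at opposite ends within the same libraries at 1 week, the enzyme gene higher and the receptor gene lower in each of the 3 MI libraries than in any sham library. Markers of other cell types also differed between MI and sham. Their counts stand beside 72.8% of all tested genes called higher and 16.5% lower at 1 week. At 8 weeks these shares were 70.4% and 10.6%, and at 1 day 39.7% and 30.6%. The sum over 12 fibroblast markers was 11406 to 13553 FPKM in MI at 1 week and 2245 to 6742 at 8 weeks, against 510 to 805 in the sham groups of those stages, with 10 of 12 higher at 1 week and 11 of 12 at 8 weeks. Of the 9 macrophage markers tested, 9 were higher at 1 week, with sums of 3318 to 3924 FPKM in MI and 146 to 252 in sham. Among pericyte and smooth muscle markers 7 of 12 were lower at 1 day, when their sum was 588 to 685 FPKM in MI and 657 to 703 in sham. At 1 week 6 of these 12 were higher and 3 lower, and their sum was 1152 to 1505 FPKM in MI and 605 to 616 in sham. After median-ratio scaling 5 were higher and 6 lower, beside 5356 and 5087 of all 12858 tested genes. Of 12 endothelial markers 9 were higher and 1 lower at 1 week, but 1 was higher and 7 lower after median-ratio scaling. Their 8-week counts were 4 and 1, and after that scaling 0 and 8, beside 4452 and 4899 of all tested genes. Ventricular cardiomyocyte markers were lower for 12 of 12 at 1 day and 1 week, both as deposited and after median-ratio scaling. Their 8-week count was 7 lower as deposited and 12 lower after the scaling. The part of these cell types in the values of Ace and Agtr1a was not tested.

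Edn1, the gene of endothelin 1, was higher in MI at each stage. At 1 day the MI libraries had 4.99, 6.86 and 6.26 FPKM and the sham libraries 1.52, 2.06 and 1.72, and at 1 week 9.31, 8.06 and 7.58 against 1.87, 1.45 and 1.41. At 8 weeks they had 3.53, 6.18 and 6.71 against 1.43, 1.18 and 1.17. The MI and sham libraries were apart at all 3 stages.

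Edn1 rose by 1.34 at 1 day, by 1.85 at 1 week and by 1.48 at 8 weeks on the log2 scale (SE 0.17 each), with limma adjusted p of 2.5e-06, 3.54e-08 and 1.27e-06. Its mean FPKM was 3.42, 5.28 and 4.34 times that of sham. After median-ratio scaling the rises were 1.29, 1.08 and 0.96. None of the differences between stages of the MI effect on Edn1 or on Ece1 was called.

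Ece1, whose product cuts the endothelin precursor, was the most abundant of the endothelin genes. The MI libraries had 36.1, 41.5 and 36.9 FPKM at 1 day and 41.9, 40.7 and 36.5 at 1 week, and the sham libraries of these stages lay between 14.5 and 18.3. At 8 weeks the MI libraries spread over 17.97, 34.3 and 43.5 FPKM above sham values of 14.8, 15.8 and 13.8. The MI libraries were all above sham, MI library 1 at 8 weeks by the least.

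Ece1 rose by 1.17 (limma adjusted p = 9.91e-05), 1.30 (2.02e-05) and 0.98 (0.000507) on the log2 scale, each with an SE of 0.21. After median-ratio scaling the rise was 1.07 at 1 day and 0.36 at 1 week, and the value of 0.27 at 8 weeks was no longer called (limma adjusted p = 0.0901). The 8-week value was also 0.27 with no call when MI libraries 2 and 3 were both left out, a setting chosen after seeing the data. Of the list of other endothelin genes only Ece2, a related converting enzyme, could be tested, and it rose at all 3 stages by 0.80, 1.71 and 1.14 on the log2 scale (limma adjusted p = 0.000284, 5.05e-08 and 1.09e-05), and by 0.71, 0.85 and 0.52 after median-ratio scaling. Edn2 and Kel were not among the listed genes, and Ecel1 and Mmel1 were under the filter.

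Edn3 was the lowest of the endothelin genes at 1 day and 1 week. It had 0.11, 0.06 and 0.17 FPKM in MI and 0.26, 0.37 and 0.28 in sham at 1 day, and 0.01, 0.13 and 0.12 against 0.57, 0.45 and 0.61 at 1 week. At 8 weeks the order was the opposite, with 2.62, 2.19 and 1.70 FPKM in MI and 0.98, 1.03 and 1.37 in sham. The libraries did not overlap at any of the 3 stages, but all values of the first 2 stages were under 1 FPKM.

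The log2 change of Edn3 was −0.23 at 1 day, which was not called (limma adjusted p = 0.0589). It was called with a pseudocount of 0.1 (−0.93, limma adjusted p = 0.00654) and with each stage fitted alone (limma adjusted p = 0.00376), and over all alternatives the adjusted p ran from 0.00376 to 0.165. Edn3 fell by 0.51 at 1 week (limma adjusted p = 0.000207), and its mean FPKM there was 0.160 of that in sham. At 8 weeks Edn3 rose by 0.57 on the log2 scale (limma adjusted p = 0.000108) in the FPKM as deposited, but the value was 0.14 after median-ratio scaling and −0.12 after quantile normalization, with no call in either. Edn3 passed the filter through its 8-week libraries alone, so its calls that involve 8 weeks rest on the groups that let it in. The effect at 8 weeks was above that at 1 week by 1.08 (limma adjusted p = 8.37e-05) and above that at 1 day by 0.80 (limma adjusted p = 0.00019). With no filter on low values both differences were still called (limma adjusted p = 7.2e-05 and 0.000148). The second of these was lost in all 3 scalings, at 0.41 after median-ratio factors, 0.20 after quantile normalization and 0.16 in the authors' normalized values (limma adjusted p = 0.0627, 0.454 and 0.532). Between the sham groups Edn3 was higher at 8 weeks than at 1 week by 0.46 (limma adjusted p = 0.046), a call that 0.848% of genes shared and that was lost when any library of the 2 groups was left out.

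Within each library the ratio of Edn1 to Edn3 does not depend on the scaling of that library. It was 36.7 to 108 in MI and 5.59 to 6.07 in sham at 1 day, 61.4 to 908 against 2.30 to 3.28 at 1 week, and 1.35 to 3.94 against 0.854 to 1.46 at 8 weeks. The groups were apart at 1 day and 1 week, with exact permutation p = 0.1, the smallest that 3 against 3 libraries can give, and overlapped at 8 weeks (exact permutation p = 0.2, n = 3). The upper values rest on Edn3 levels near 0 and their size is not precise.

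**Figure D2:**
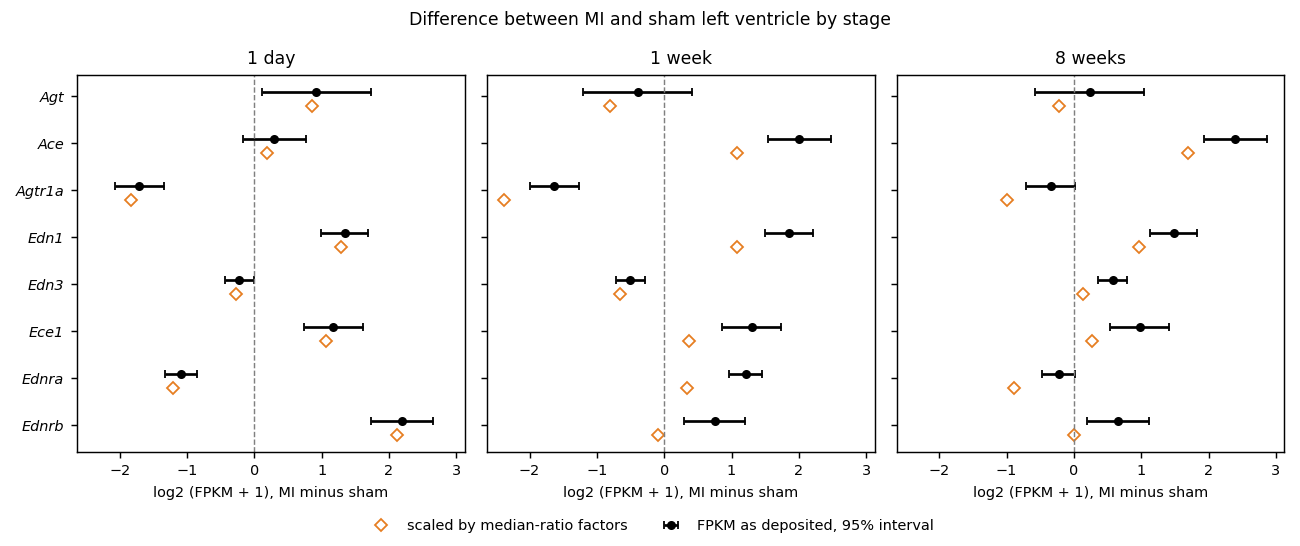
Log2 (FPKM + 1) in MI minus sham (horizontal axis) for the 8 listed genes at each stage, with points and 95% intervals from the limma fit to the FPKM as deposited and open diamonds after scaling by median-ratio factors. The points of both kinds lie close together at 1 day, while at 1 week and 8 weeks the scaled values are lower and those of Ednrb fall to −0.10 and 0.00.

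The endothelin receptors differed in opposite directions at 1 day. Ednra, the constrictor receptor gene, was at 5.21, 4.30 and 5.14 FPKM in MI and at 11.5, 11.95 and 11.1 in sham. Ednrb, the type B receptor gene, was at 21.1, 28.7 and 23.3 FPKM in MI and at 3.93, 4.13 and 5.55 in sham. Every MI library had less Ednra and more Ednrb than every sham library.

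Ednra fell by 1.09 on the log2 scale at 1 day (SE 0.11, limma adjusted p = 3.85e-07), to 0.424 of the mean FPKM of sham. Ednrb rose by 2.19 (SE 0.22, limma adjusted p = 2.02e-07), to 5.36 times the mean FPKM of sham, the largest rise of the 8 genes at that stage. After median-ratio scaling the changes were −1.21 and 2.11. The ratio of Ednra to Ednrb was 0.15 to 0.247 in MI and 2.0 to 2.93 in sham, a log2 difference of −3.67 between the group means (exact permutation p = 0.1, n = 3).

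At 1 week Ednra was high in MI, with 15.9, 13.6 and 16.1 FPKM against 6.49, 6.15 and 5.33 in sham. It rose by 1.21 (SE 0.11, limma adjusted p = 6.19e-08), and by 0.33 after median-ratio scaling (limma adjusted p = 0.00302). Ednrb at 1 week had 9.20, 9.38 and 9.57 FPKM in MI and 5.87, 4.40 and 5.39 in sham. Its rise of 0.75 (limma adjusted p = 0.00405) was about that of the middle gene and turned to −0.10 with no call after median-ratio scaling, −0.09 after quantile normalization and −0.10 in the authors' normalized values. The receptor ratio was 1.45 to 1.72 in MI and 0.989 to 1.40 in sham, a log2 difference of 0.49 (exact permutation p = 0.1, n = 3).

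Part of the Ednra difference at 1 week came with a lower sham level. Ednra in sham was 0.84 lower on the log2 scale at 1 week than at 1 day (limma adjusted p = 0.000833) and 0.58 higher at 8 weeks than at 1 week (limma adjusted p = 0.027), where only 1.42% and 0.848% of tested genes were called. The second of these calls was lost when any 1 of the 6 libraries was left out, with adjusted p of 0.0563 to 0.143. Stage and any batch of processing cannot be told apart in the sham groups. In MI the mean was 4.88 FPKM at 1 day, against 15.2 at 1 week and 8.01 at 8 weeks.

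At 8 weeks Ednra had 6.44, 7.95 and 9.63 FPKM in MI and 9.87, 9.17 and 9.28 in sham, and the groups overlapped. The log2 change of −0.23 was not called (limma adjusted p = 0.0761), but it was −0.89 after median-ratio scaling (limma adjusted p = 5.7e-07) and −0.36 without MI library 3 (limma adjusted p = 0.00606), in a range over all alternatives of −0.89 to −0.10 and adjusted p of 5.7e-07 to 0.369. Ednrb had 5.39, 9.88 and 13.9 FPKM in MI and 5.51, 5.57 and 5.26 in sham. Its rise of 0.65 (limma adjusted p = 0.0118) came from MI libraries 2 and 3, since library 1 lay within the sham range. It was 0.00 after median-ratio scaling and 0.37 with no call without MI library 3 (limma adjusted p = 0.0784), and 0.98 without MI library 1, in a range of adjusted p over all alternatives of 1.91e-05 to 0.989.

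The within-library receptor ratio at 8 weeks was 0.694 to 1.19 in MI and 1.65 to 1.79 in sham, a log2 difference of −0.99 with no overlap (exact permutation p = 0.1, n = 3). The ratio was thus on the side of Ednrb in all MI libraries at 1 day, on the side of Ednra at 1 week and below sham again at 8 weeks. By the limma test of the difference, the MI effect on Ednra was higher at 1 week than at 1 day by 2.30 (adjusted p = 2.23e-08) and lower at 8 weeks than at 1 week by 1.44 (adjusted p = 2.68e-05). For Ednrb it was lower than at 1 day by 1.45 at 1 week (limma adjusted p = 0.000592) and by 1.54 at 8 weeks (limma adjusted p = 0.000423).

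**Figure D3:**
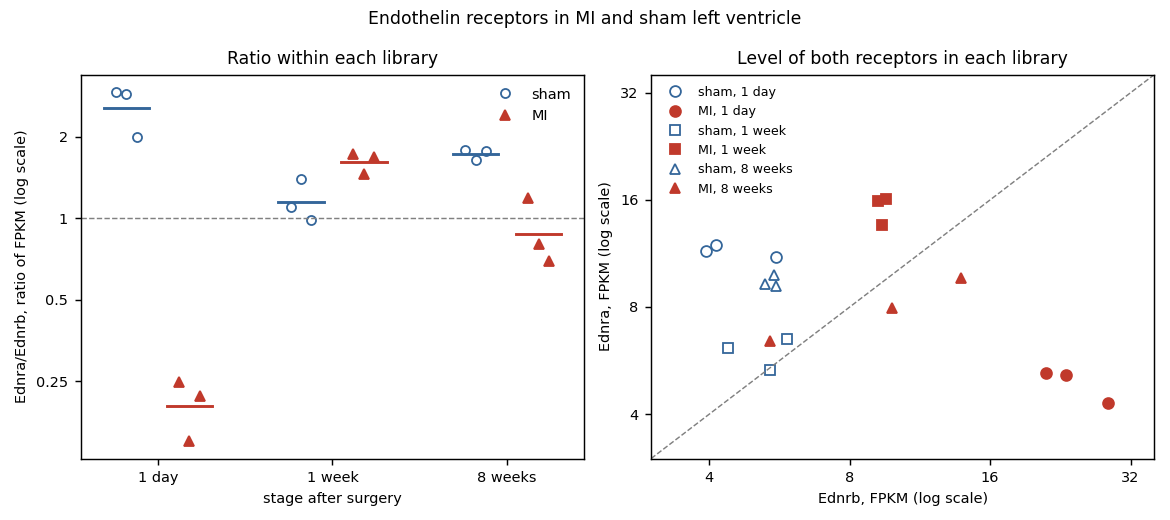
Left, ratio of Ednra to Ednrb FPKM in each library (vertical axis, log scale) for sham (open circles) and MI (filled triangles) at the 3 stages, with bars at the group means of log2 values. Right, Ednra against Ednrb FPKM in each library (both axes logarithmic, dashed line at equal levels), where the 3 MI libraries of 1 day stand alone at 21.1 to 28.7 FPKM of Ednrb and 4.30 to 5.21 of Ednra.

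Endothelial markers, the smooth muscle and pericyte list and neutrophil markers also differed at 1 day. Of all tested genes 39.7% were called higher and 30.6% lower at that stage. After median-ratio scaling 5120 of the 12858 tested genes were called higher there and 4781 lower. The summed 12 endothelial markers were 447 to 513 FPKM in MI and 305 to 369 in sham, with 8 higher and 2 lower at 1 day (8 and 3 after median-ratio scaling). Of 7 neutrophil markers 7 were higher, with sums of 6175 to 10056 FPKM in MI and 18.3 to 37.9 in sham. None of these markers was at 0 in all libraries of a group. The part of these cell types in the receptor values was not tested.

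The MI libraries at 8 weeks differed widely among themselves, and several genes put them in the same order. In libraries 1, 2 and 3 the median FPKM of all genes was 3.48, 4.46 and 5.52, the cardiomyocyte marker sum 38372, 26185 and 16016, and the fibroblast marker sum 2245, 4644 and 6742. Agt, Ace, Edn1, Ednra, Ednrb and Ece1 were lowest in library 1 and highest in library 3, while Agtr1a and Edn3 were highest in library 1 and lowest in library 3. The summed markers of adipocytes (627, 1353 and 2669 FPKM) and of mesothelium and epicardium (15.8, 32.9 and 211 FPKM) differed in the order of the first 6 genes, and their part in these values was not tested.

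The wider angiotensin list held 25 other genes of precursors, peptidases, receptors and aldosterone signalling, of which 19 were listed and 16 could be tested. By the same test 6 of them rose and 5 fell at 1 day, 11 rose and 1 fell at 1 week, and 10 rose and 1 fell at 8 weeks, and after median-ratio scaling 6 rose and 7 fell at 1 week, and 5 rose and 7 fell at 8 weeks. The median log2 change over the 16 was 0.25, 0.55 and 0.47 beside 0.09, 0.79 and 0.52 for all tested genes. Over all tested genes 39.7% rose and 30.6% fell at 1 day, 72.8% rose and 16.5% fell at 1 week, and 70.4% rose and 10.6% fell at 8 weeks, and the counts of the list are near these shares. Apln, the gene of the peptide apelin, rose by 3.15 at 1 day, while its receptor gene Aplnr fell by 1.89 and Nr3c2, the mineralocorticoid receptor gene, fell by 1.30 (limma adjusted p = 9.91e-09, 2.04e-08 and 3.47e-07). At 1 week the largest changes were those of the aminopeptidase gene Anpep (3.97), of Prcp (2.57), a carboxypeptidase that can cut angiotensin II, and of Atp6ap2 (2.37), the prorenin receptor, with limma adjusted p of 5.99e-11, 1.02e-08 and 2.35e-08. The same 3 genes had the largest changes at 8 weeks, at 3.05, 1.74 and 1.72.

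Cma1, the mast cell chymase that also forms angiotensin II, rose by 1.18 at 8 weeks (limma adjusted p = 0.00696) and was not called at the other stages, a call lost after quantile normalization, with 8-week values of 0.663 to 6.70 FPKM in MI and 0.395 to 0.438 in sham. Mme, neprilysin, which degrades angiotensin and natriuretic peptides, fell by 0.96 at 1 day (limma adjusted p = 0.00142) and was not called at 1 week or 8 weeks in the FPKM as deposited, though it was called lower at both after median-ratio scaling. Mas1, the receptor of angiotensin 1-7, and Hsd11b2 were under the filter. Ren1, Ren2, Agtr1b, Ctsg, Mrgprd and Cyp11b2 were not among the listed genes.

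**Figure D4:**
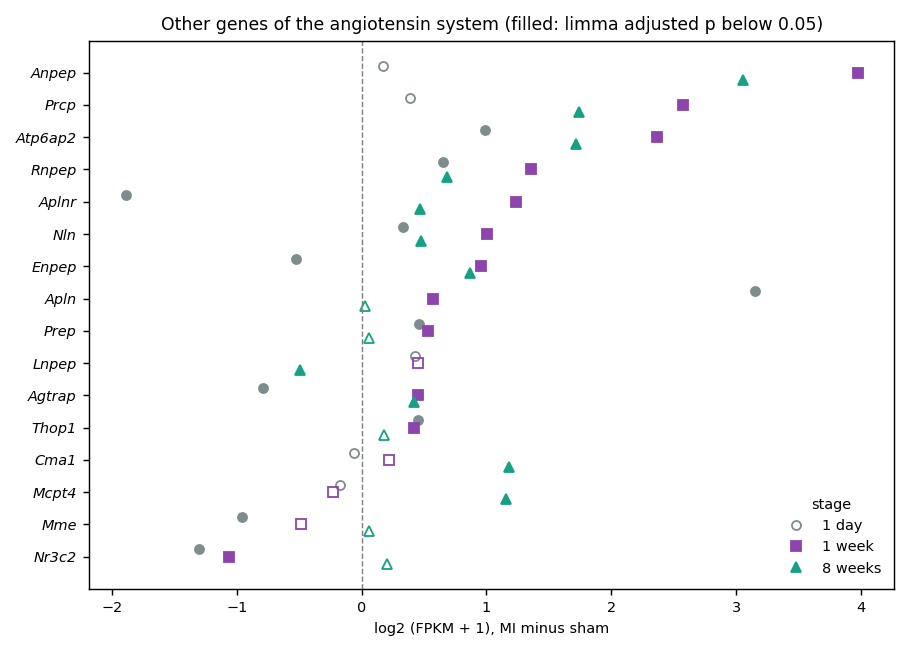
Log2 (FPKM + 1) in MI minus sham (horizontal axis) for the 16 other tested genes of the angiotensin list, with circles for 1 day, squares for 1 week and triangles for 8 weeks, filled where the limma adjusted p is below 0.05. Apln and Aplnr lie at 3.15 and −1.89 at 1 day, and Anpep reaches 3.97 at 1 week.

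Of 28 tested genes that carry signals of both receptor families inside the cell, 14 rose and 5 fell at 1 day, 23 rose and 1 fell at 1 week, and 22 rose and 4 fell at 8 weeks, with median log2 changes of 0.39, 1.30 and 0.84 beside 0.09, 0.79 and 0.52 for all tested genes. The share of all tested genes that rose was 39.7%, then 72.8%, then 70.4%, and the share that fell was 30.6%, then 16.5%, then 10.6%, so that nothing particular to the list is read from its counts. After median-ratio scaling 16 rose and 8 fell at 1 week, beside 5356 and 5087 of all 12858 tested genes. At 8 weeks 13 rose and 9 fell after that scaling, beside 4452 and 4899 of all tested genes. The largest rises were those of Prkcd, a protein kinase C, at 2.59, 2.81 and 2.06, and of the arrestin gene Arrb2, at 2.29, 3.07 and 2.27. Rgs5, a regulator of G-protein signalling in pericytes, fell by 1.38 and Gna12 by 0.81 at 1 day, and Prkce fell by 0.22 at 1 week. At 8 weeks Rgs5 fell by 0.60 and Prkce by 0.54.

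Among 16 tested genes that angiotensin II or endothelin 1 induces in cultured cells, 14 rose at 1 day, 13 at 1 week and the same number at 8 weeks, and 0 fell at any stage, while after median-ratio scaling 9 rose and 3 fell at 1 week and 12 rose and 1 fell at 8 weeks. Of all tested genes 39.7%, then 72.8%, then 70.4% rose in the FPKM as deposited, and 30.6%, then 16.5%, then 10.6% fell. The counts of the list that rose at 1 week and 8 weeks are near these shares, and the count that rose at 1 day is above its share. After median-ratio scaling 14 rose and 0 fell at 1 day, beside 5120 and 4781 of all 12858 tested genes. With median-ratio scaling 5356 of the 12858 tested genes rose and 5087 fell at 1 week, and 4452 rose and 4899 fell at 8 weeks. The scaled counts of the list that rose are above these shares, which was not tested for the list as a set. The medians were 3.13, 2.32 and 1.69 beside 0.09, 0.79 and 0.52 for all tested genes, and many other signals induce these genes too. Il6 rose by 5.61 at 1 day, and the largest rises were those of Fn1 (6.99) and Postn (6.92) at 1 week, and Nppa (4.67) and Fn1 (4.57) at 8 weeks.

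Ordered by group mean, the neighbours in level often did not separate. For Ace, MI at 8 weeks (56.3 ± 21.9 FPKM, SD, n = 3) and at 1 week (51.1 ± 10.2) overlapped, and the 4 other groups had means from 11.9 down to 8.42 FPKM, of which only neighbours in that order overlapped. For Ednrb, MI at 1 day (24.3 ± 3.91) stood above MI at 8 weeks (9.72) and at 1 week (9.39), which overlapped, and the 3 sham groups overlapped between 5.44 and 4.54. For Edn1, MI at 1 week (8.32 ± 0.893) was above MI at 1 day (6.03) and 8 weeks (5.47), which overlapped, and all sham groups were below 2.1 FPKM in each library. For Agtr1a the sham groups took the first 3 places, with means of 11.3, 9.44 and 8.39, and MI at 1 week (3.04) and 1 day (2.22) the last, overlapping each other.

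The genes whose pattern over the 18 libraries was most like that of each member, by Pearson's r of log2(FPKM + 1) among genes with a mean of at least 5 FPKM, are given as a description, since libraries of a group share their treatment. They were C1ra (0.988), Mgp (0.988) and Pmp22 (0.987) for Ace, and Crip2 (0.982), Abcb8 (0.982) and Akr1b10 (0.981) for Agtr1a. For Edn1 they were Sp140 (0.995), Zfp36l2 (0.993) and Rps18 (0.991), for Ednrb Klhl2 (0.985), Sema4a (0.975) and Gda (0.975), and for Ece1 Acly (0.992), Sav1 (0.991) and Spred1 (0.988). Ednra, Edn3 and Agt had no such close partners, with Arfgef2 (0.91), Adamtsl5 (0.914) and Oxsr1 (0.814) first for each.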

How the data were processed

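Total RNA of pooled left ventricles had been sequenced (TruSeq kit), and the submitters' processing notes name TopHat2 2.0.13, Bowtie2 2.2.3, Cufflinks 2.2.1 and build mm10, with no options. The authors deposited FPKM for each gene and library, and log2 columns that the authors normalized, with the same median in every library. The authors' fold changes and p-values in the same file were not used, nor was the small RNA. Counts were not used here, so depth is unknown and FPKM limits the precision of low genes.

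From the FPKM, log2(FPKM + 1) was analysed for genes that reached 1 FPKM in 3 or more libraries. One limma 3.58.1 fit (R 4.3.3, trend) over the 6 groups, with 12 residual degrees of freedom, gave MI against sham per stage, the differences of these effects between stages, and sham between stages. Ratios within libraries had exact two-sided permutation tests over 3 against 3 libraries. The fit was tested on simulated data. Positions and promoters came from RefSeq on GRCm38.p6.

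Named genes were the 9 members, Ren1, Agtr1b, Mas1, Edn2, Ece2, Cma1, Mme, the 3 largest called changes per stage of the other angiotensin genes, and the 2 largest changes in each direction of the 2 lists of signalling and induced genes. The members and lists were chosen with earlier results of these data known. Some genes that this rule named are not reported here.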

Additional observations from a re-analysis of the deposited data

Results flagged for a closer look

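Effects of MI that differed between stages by the limma test of the difference itself (adjusted p below 0.05, log2 scale) are listed here with no explanation. Such calls were common, with 71.8% of all tested genes called for 1 week minus 1 day. The share was 47.1% for 8 weeks minus 1 week and 63.7% for 8 weeks minus 1 day. In the same order 4, 5 and 3 of the 8 genes were not called. The effect on Agt was −1.31 at 1 week relative to 1 day, with an adjusted p of 0.0391 that rose above 0.05 in 12 alternative settings. The effect on Ace differed by 1.72 (1 week minus 1 day) and 2.10 (8 weeks minus 1 day). That on Agtr1a differed by 1.28 (8 weeks minus 1 week) and 1.36 (8 weeks minus 1 day), and that on Edn3 by 1.08 and 0.80 for the same pairs. Edn3 had passed the filter through its 8-week libraries alone. The effect on Ednra differed by 2.30 (1 week minus 1 day), −1.44 (8 weeks minus 1 week) and 0.86 (8 weeks minus 1 day), and that on Ednrb by −1.45 (1 week minus 1 day) and −1.54 (8 weeks minus 1 day). These comparisons share groups, so the values are not independent of each other. After median-ratio scaling, quantile normalization or in the authors' normalized values, each of the 12 kept its sign, and the Edn3 difference between 8 weeks and 1 day was no longer called in any of the 3.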

How the results depend on the processing

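Of 359 values of a gene at a stage under an alternative setting, 313 kept direction and side of the threshold, 17 became called, 18 lost the call and 11 changed sign, and the cause was not tested. Ednrb at 1 week was −0.094, −0.10 and −0.10 under quantile normalization, median-ratio factors and the authors' normalized values. Agt at 8 weeks was −0.45, −0.22 and −0.41 under these, −0.45 to 0.75 without 1 library (−0.45 without MI library 3) and −0.80 without MI libraries 2 and 3, a setting chosen after seeing the data. Edn3 at 8 weeks was −0.12 and −0.11 under quantile normalization and the authors' values, and Ednrb at 8 weeks −0.012 without MI libraries 2 and 3. At 8 weeks 3, 2 and 3 genes were then higher and 2, 2 and 2 lower under the scalings, and 3 higher and 2 lower without both libraries. Leaving out 1 library gave 0 to 2 lower at 8 weeks, 3 to 5 stage differences between 8 weeks and 1 week (6 without both) and 0 sham differences between those stages for each. A mean of at least 5 FPKM removed Agt, Edn1 and Edn3, leaving 2 genes higher at 1 day, 1 lower at 1 week, and 3 called and higher at 8 weeks. It also left 1 sham difference between 8 weeks and 1 week. In that sham count alone, a pseudocount of 0.1 and both normalizations gave the same number. Of the other angiotensin genes, quantile normalization gave 5 higher and 6 lower at 1 week and 4 and 8 at 8 weeks, and median-ratio factors 6 and 7, then 5 and 7. Over all 12858 tested genes quantile normalization gave 5311 higher and 5101 lower at 1 week, and 3976 and 5120 at 8 weeks. With 0.1 FPKM added, the Edn1/Edn3 log2 difference was 2.64 at 1 day, against 3.27 without the addition. At 1 week the difference without the addition was 5.71, and the log2 ratios of the MI libraries there had an SD of 2.23.

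Same-numbered MI and sham libraries correlated by −0.09 to 0.29 in their deviations, not above 0.1 in every pair, so the numbers were not taken as pairing. With the replicate block 1 sham difference between 8 weeks and 1 week remained, Edn3 losing its call (limma adjusted p = 0.0781), and the counts of genes called for MI against sham were 6, 7 and 5 as without it.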
